A study of Mus musculus and Rattus norvegicus with 26 samples.

Results

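Cytoplasmic intron-sequence retaining transcripts (CIRTs) are mRNAs found outside the nucleus that still carry stretches of intron. Dendrites were cut away from the cell body and its nucleus, but somas, BAT cells and cardiomyocytes hold nuclei, so that reads from unspliced nuclear RNA and from cytoplasmic mRNA cannot be told apart in those 4 lists, or in comparisons of dendrites with them. The 9 genes Zbtb49, Haus6, Alkbh8, Plxdc2, Nell1, Tmem170b, Mettl9, Ssbp1 and Hltf, of 13695 genes with a listed intron in any of 6 lists, host the introns described here. Each was chosen because 1 of its introns had among the most reads, or among the most reads per length of contig, in 1 list. The reads and ranks in that list are therefore descriptions, and no test was made of them. A contig is a block of neighbouring intronic reads, and each list gives the contigs of a group with the read count of the intron that holds them.

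The lists came from dendrites (3 libraries) and somas (3 libraries) of C57BL/6 mouse hippocampal neurons of embryonic day 18, and from dendrites (2 libraries) and somas (3 libraries) of Sprague-Dawley rat hippocampal neurons of the same embryonic day. The other lists came from interscapular brown adipose tissue (BAT) cells of CD-1 mice at embryonic day 17.5 (6 libraries) and from cardiomyocytes of transgenic C57BL/6 mice at embryonic day 14.5 (9 libraries). The neurons were grown as primary cultures, each dendrite library pooled many hand-cut dendrites, and the BAT cells were picked by their morphology. The cardiomyocytes were flow sorted from ventricles, and their embryos were hemizygous for the Fucci cell cycle probe mAG-hGem (1/110) under the ubiquitous CMV promoter. All libraries had been amplified by 3x aRNA, a linear amplification that starts from a poly(T) primer.

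Introns are normally cut out in the nucleus by the spliceosome, which recognises the 5′ end, a stretch rich in pyrimidines and the AG at the 3′ end of the intron. An intron left in an mRNA can change its coding sequence, its stability or its place in the cell. The 9 hosts do unlike work. Zbtb49 is a zinc-finger transcription factor with a BTB domain, and Hltf is an ATPase and ubiquitin ligase of stalled replication forks. Alkbh8 modifies wobble uridines of tRNAs, and Mettl9 methylates histidines of proteins. Haus6 is a subunit of augmin, which starts new microtubules on existing ones. Plxdc2 is a membrane protein with a plexin repeat, Tmem170b is a small membrane protein, and Nell1 is secreted. Ssbp1 coats single-stranded DNA in mitochondria.

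The lists differed in size, from 5315 introns in rat somas to 30018 in BAT cells. The reads, taken once per intron, summed to between 1007530 in rat dendrites and 17858440 in BAT cells. The median intron had between 14 and 53 reads. Values are given as RPM, reads per 1000000 reads of the list, with 95% intervals that cover counting error only (exact Poisson for reads, exact Clopper-Pearson for shares, exact conditional binomial for ratios). Since each list pools its libraries, there is no spread between libraries and no difference between lists has a replicate check. Of the 22611 protein-coding symbols of GENCODE, 37.7% had a listed intron in mouse dendrites, 25.9% in mouse somas, 44.6% in BAT cells, 27.2% in cardiomyocytes, 17.7% in rat dendrites and 13.4% in rat somas. Of 10 neuronal markers, 8, 10, 7, 3, 4 and 5 were listed in these lists, in the same order. Brown adipocyte markers were listed for 7 of 10 in BAT cells, 6 in mouse dendrites and 3 in cardiomyocytes, and cardiomyocyte markers for 9 of 10 in cardiomyocytes (Nkx2-5 not listed), 6 in BAT cells and 4 in mouse dendrites. Several summed levels of marker lists rested on 1 intron. Without Nkx2-5 intron 1 the cardiomyocyte sum of BAT cells was 580.1 rather than 2081 RPM. The astrocyte sum of mouse dendrites (4 of 5 markers, 966 RPM) was 50.9 without Aldh1l1 intron 16. The endothelial sum of mouse somas (437 RPM) was 56.1 without Kdr intron 3, and the fibroblast sum of rat dendrites (3 of 4 markers, 319 RPM) was 35.7 without Col1a2 intron 4. A listed intron is not a measure of a gene's expression, and the part of other cell types in the values below was not tested.

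In all, the 9 genes had 173 contigs in 95 listed introns, counted once per list. By list, 7 of the 9 genes were present in mouse dendrites, 6 in mouse somas, 7 in BAT cells, 5 in cardiomyocytes, 3 in rat dendrites and 5 in rat somas. Of all 13695 genes, 62.8%, 43.0%, 74.6%, 45.3%, 32.7% and 24.8% were in these lists, in the same order. The intron of each gene with its best rank in any list is called its best-ranked intron. By reads, Zbtb49 intron 3 was rank 1, Haus6 intron 8 rank 2 and Alkbh8 intron 3 rank 3 in mouse dendrites. Plxdc2 intron 13 was rank 3 in mouse somas, Tmem170b intron 1 rank 3 and Mettl9 intron 3 rank 12 in BAT cells, and Nell1 intron 12 rank 7 in rat somas. By reads per 50 nt of contig, Ssbp1 intron 4 was rank 1 in rat dendrites and Hltf intron 11 rank 1 in rat somas, where they ranked 66 and 61 by reads. Their contigs of 72 and 52 nt were little longer than a read of 50 nt, and for a given count this measure is highest in the shortest contigs.

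Zbtb49, Haus6 and Alkbh8 took the first 3 ranks by reads in mouse dendrites, while outside that list introns of other genes ranked above some members. By reads, Gria4 intron 5 with 24913 reads stood just above Plxdc2, Cenpi intron 18 with 19031 above Nell1, Kif1b intron 16 with 95060 above Tmem170b and D630037F22Rik intron 25 with 67410 above Mettl9. The introns ranked next below were Papss2 intron 7 with 12142 reads after the 15615 of Alkbh8, Dlc1 intron 2 with 14140 after the 17484 of Plxdc2, Gtf2ird1 intron 8 with 16348 after the 18580 of Nell1, Ctnna3 intron 2 with 90978 after the 95000 of Tmem170b and Rabgef1 intron 2 with 63465 after the 67352 of Mettl9. By reads per 50 nt, RGD1311678 intron 17 followed Ssbp1 at 1366 against 1433, and Nubp1 intron 6 followed Hltf at 3139 against 4963. The gap to the next intron was small for Tmem170b, Mettl9 and Ssbp1. It was wider for Hltf, for Zbtb49 (37928 reads against 22090) and for Haus6 (22090 against 15615).

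**Figure D1:**
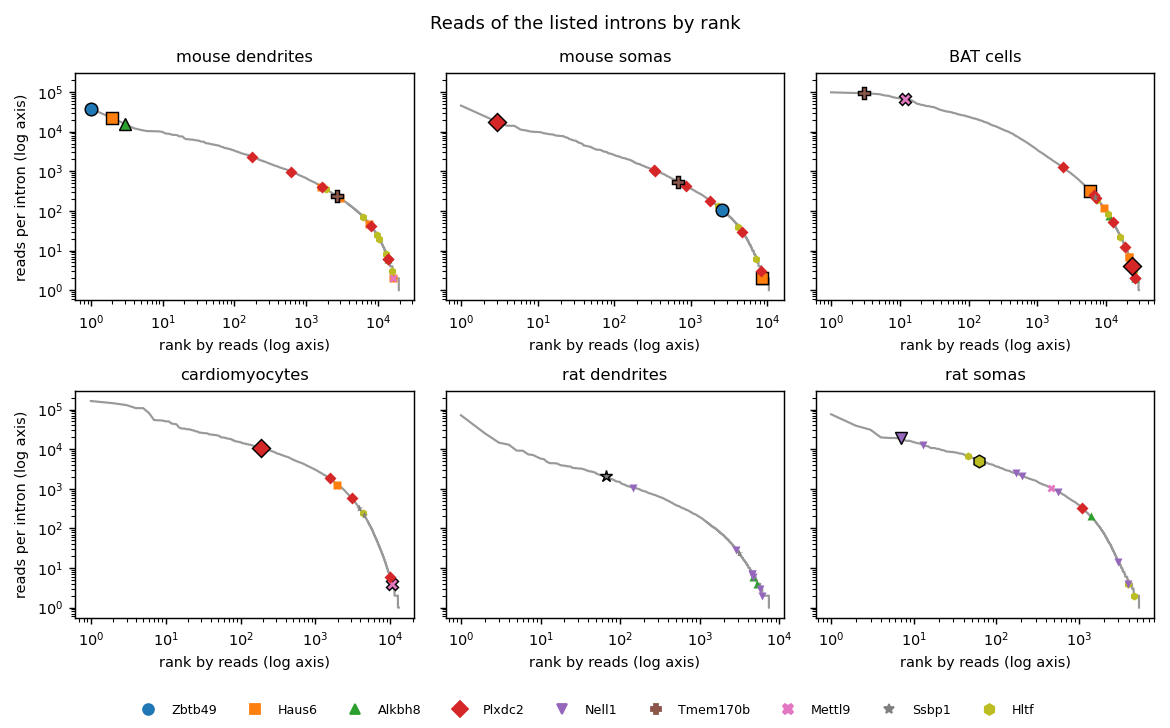
Reads per intron against rank by reads in each of the 6 lists, both on log axes. The grey line is all introns of a list, and the symbols are all listed introns of the 9 genes, with large outlined symbols for the best-ranked intron in the lists of its species. Zbtb49 intron 3 is at rank 1 in mouse dendrites and rank 2601 in mouse somas, Plxdc2 intron 13 at rank 3 in mouse somas and 189 in cardiomyocytes, and Ssbp1 intron 4 and Hltf intron 11, chosen by density, at ranks 66 and 61. Symbols at the same rank cover each other.

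The 6 best-ranked introns chosen in mouse lists were all listed in at least 1 other mouse list (6 of 6). Of all introns with at least 1000 reads, 80.0% in mouse dendrites, 88.0% in mouse somas and 70.6% in BAT cells were also in another mouse list, which is the background to read the 6 against. Over introns of any read number these shares were 62.2%, 75.6% and 51.3%. With contigs of at most 400 nt in every list, 2 of the 6 remained, Plxdc2 and Mettl9. With this limit only in somas, BAT cells and cardiomyocytes, where the paper applied it, 6 of 6 remained. None of the 3 introns chosen in rat lists was in the other rat list (0 of 3). Here the background was 42.8% of the introns with at least 1000 reads in rat dendrites and 41.5% in rat somas, and 24.9% and 34.8% of all introns of these lists. An intron that is not listed may have had reads that the authors' filters removed, so no fold is given against such an intron.

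**Figure D2:**
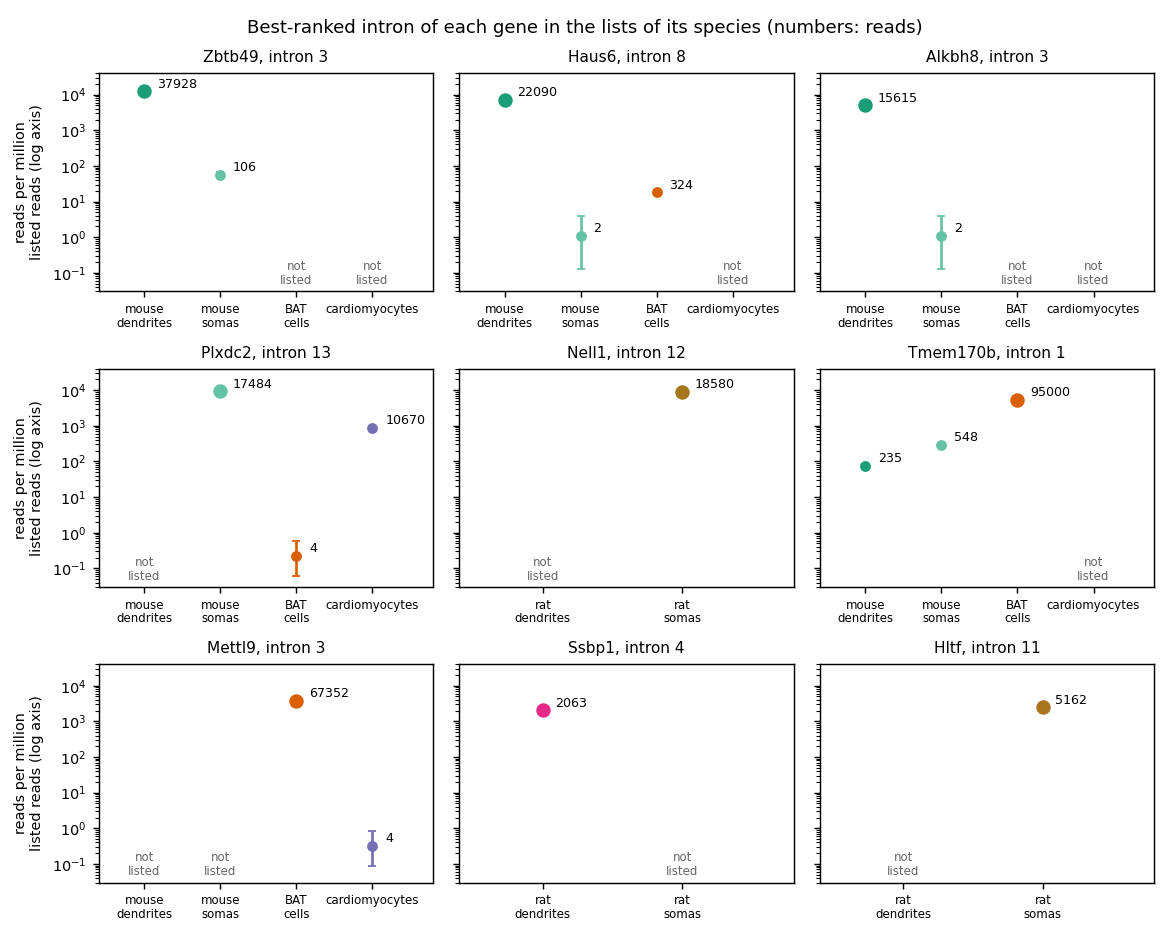
RPM (log axis) of the best-ranked intron of each gene in the 4 mouse lists or the 2 rat lists. Bars are 95% Clopper-Pearson intervals for counting error, smaller than the symbol where reads are many, and the numbers beside the points are reads. Values in the other lists are lower than in the list that chose the intron, from 875 RPM for Plxdc2 in cardiomyocytes down to 0.224 RPM for Plxdc2 in BAT cells.

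Zbtb49, a transcription factor, was listed with a single intron. Intron 3 had 37928 reads in mouse dendrites, which is 12288 RPM (interval 12165 to 12412), and 106 reads in mouse somas, which is 57.1 RPM (46.8 to 69.1). It was not listed in BAT cells, cardiomyocytes or either rat list. The level in dendrites was 215 times that in somas (interval 178 to 263). For comparison, the median ratio over the 338 introns that had at least 1000 reads in mouse dendrites and were listed in somas was 93.2. Zbtb49 was chosen for its dendrite reads, so its ratio is a description and its place above this median follows from the choice. In somas, those introns had a median of 12 reads, against 106 for Zbtb49. The dendrite contig of 971 nt lay on chromosome 5 from 38603484 to 38604454 (NCBIM37, mm9, minus strand), starting 92 nt after the 5′ end of the intron, and the soma contig of 208 nt lay wholly inside it.

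The Zbtb49 contigs were also exonic by another transcript model. Transcript ENSMUST00000114113.1 of GENCODE has an exon from 38603276 to 38605622 that runs through the 5′ part of intron 3, holds a stop codon there, and covers all 971 nt of the dendrite contig. In that model 120 nt of the contig are coding and 851 nt are 3′ UTR, and all 208 nt of the soma contig are 3′ UTR. No other mouse contig of a best-ranked intron overlapped an annotated exon. The coding start of the dendrite contig up to the stop codon (chr5:38604332-38604454, minus strand, 123 nt) is shown because it is where the exon model and the intron reads coincide, with the stop codon in capitals.
Zbtb49: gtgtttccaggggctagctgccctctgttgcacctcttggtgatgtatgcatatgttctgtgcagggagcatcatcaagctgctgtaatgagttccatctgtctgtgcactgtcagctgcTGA

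Haus6, the augmin subunit, had 22090 reads in intron 8 in mouse dendrites (7157 RPM, interval 7063 to 7251). The same intron had 324 reads in BAT cells (18.1 RPM, 16.2 to 20.2) and 2 reads in mouse somas (1.08 RPM, 0.131 to 3.89). It was not listed in cardiomyocytes, where Haus6 intron 15 had 1269 reads instead. The dendrite level was 394 times that of BAT cells (353 to 442), against a median ratio of 66.5 over 358 introns. Haus6 was chosen for these dendrite reads, so the ratio is a description. In BAT cells, those introns had a median of 166.5 reads, against 324 for Haus6. Against the 2 soma reads the ratio was 6639.5, with a wide interval of 1838 to 54828.

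In mouse dendrites intron 8 held 97.0% of the listed Haus6 reads (interval 96.8 to 97.3). The other introns there had 413 reads (intron 2), 212 (intron 7), 46 (intron 1) and 2 (intron 5). The intron 8 contigs of the 3 lists overlapped on chromosome 4, within an intron of 3702 nt. The soma contig (chr4:86242324-86242571, minus strand) lay wholly inside the dendrite contig, and the 1030-nt BAT contig reached the 3′ end of the intron. Also in BAT cells, a 56-nt contig with 7 reads began at the 5′ end of intron 9, and the 194 nt between these contigs had the ends of an annotated exon. The soma contig is shown because all 3 lists share part of it, and capitals mark the 167 bases that the BAT contig also covers.
Haus6: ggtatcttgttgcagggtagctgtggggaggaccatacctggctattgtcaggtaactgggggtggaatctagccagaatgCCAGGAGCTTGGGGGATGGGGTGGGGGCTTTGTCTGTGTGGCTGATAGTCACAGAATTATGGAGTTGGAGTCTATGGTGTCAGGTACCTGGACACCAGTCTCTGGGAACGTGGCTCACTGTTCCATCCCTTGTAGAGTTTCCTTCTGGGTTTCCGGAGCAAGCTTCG

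Alkbh8, the tRNA-modifying enzyme, had 15615 reads in intron 3 in mouse dendrites (5059 RPM, interval 4980.2 to 5139) and 2 reads in mouse somas (1.08 RPM, 0.131 to 3.89). Intron 3 was not listed in BAT cells or cardiomyocytes, and the ratio of dendrites to somas was 4693 (1299 to 38758). Another intron of Alkbh8, intron 8, had 6 reads in dendrites and 73 in BAT cells, at places that did not overlap. BAT cells also listed introns 4 and 11 with 2 reads each.

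In rat, other introns of Alkbh8 were listed. Rat dendrites had 4 reads in intron 9 and 6 in intron 10, and rat somas had 200 reads in intron 7. Summed over the gene, rat dendrites stood at 9.93 RPM (4.76 to 18.3) and rat somas at 95.5 (82.7 to 110), so that rat dendrites were the lower of the 2 rat lists and mouse dendrites the higher of the 2 mouse neuronal lists. The mouse order was set by the choice of Alkbh8 for its reads in mouse dendrites, and no test of the difference was possible.

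The Alkbh8 dendrite contig (chromosome 9, 3343253 to 3343783, plus strand, 531 nt) started at the first base of intron 3 and covered 39.8% of this intron of 1335 nt. The soma contig of 189 nt lay inside it and ended 2 nt before a run of 24 adenines. The sequence from the start of the soma contig to 10 nt past the run (chr9:3343421-3343645, plus strand) is shown because the run is the longest of adenines in the 27 mouse contigs of best-ranked introns, and capitals mark it.
Alkbh8: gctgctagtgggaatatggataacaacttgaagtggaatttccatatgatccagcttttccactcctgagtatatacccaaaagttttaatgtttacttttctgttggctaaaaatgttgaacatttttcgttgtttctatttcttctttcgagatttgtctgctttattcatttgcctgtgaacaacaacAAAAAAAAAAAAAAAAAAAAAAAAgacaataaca

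Plxdc2, the plexin-domain membrane protein, had listed introns in all 4 mouse lists and in rat somas. Its best-ranked intron 13, the last intron of the gene with 21777 nt, had 17484 reads in mouse somas (9423 RPM, interval 9285 to 9563), 10670 in cardiomyocytes (875 RPM, 858 to 891) and 4 in BAT cells (0.224 RPM, 0.0610 to 0.573). It was not listed in mouse dendrites. The soma level was 10.8 times that of cardiomyocytes (10.5 to 11.0), below the median ratio of 27.9 over 163 introns. In cardiomyocytes, those introns had a median of 471 reads. Against BAT cells the ratio was 42070.3 (16428 to 154423), and those contigs did not overlap.

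Within intron 13, mouse somas had 5 contigs and cardiomyocytes 3, and these shared 1243 nt, which is 89.0% of the contig length in cardiomyocytes. A shared stretch on chromosome 2 from 16666101 to 16667288 began 15060 nt from the 5′ end of the intron, and the other ended at the last base of the intron. Both lists thus reached the 3′ splice site. The last 55 nt of the intron (chr2:16672763-16672817, plus strand) are shown because they are the whole of that cardiomyocyte contig, with the AG at the intron end in capitals.
Plxdc2: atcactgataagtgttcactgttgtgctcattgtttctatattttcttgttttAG

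The remaining introns of Plxdc2 differed from list to list. In mouse dendrites intron 1 led with 2354 reads (763 RPM, 732 to 794), followed by intron 3 with 980 and intron 4 with 399. In BAT cells intron 4 led with 1260 reads, and in cardiomyocytes intron 12 had 1850 reads next to intron 13. Intron 3 was among the highest in both dendrites (980 reads, 318 RPM) and somas (1035 reads, 558 RPM). Intron 13 held 86.4% of the Plxdc2 reads in somas and 81.4% in cardiomyocytes. In rat somas an intron with the number 13 in the rat transcript had 334 reads (159 RPM, 143 to 178), but rat introns were not matched to mouse introns.

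Tmem170b, the small membrane protein, was listed with intron 1 alone, a long first intron of 21665 nt. It had 95000 reads in BAT cells (5319.6 RPM, interval 5286 to 5353), 548 in mouse somas (295 RPM, 271 to 321) and 235 in mouse dendrites (76.1 RPM, 66.7 to 86.5), and was not listed in cardiomyocytes. The BAT level was 18.0 times that of somas (16.6 to 19.6) and 69.9 times that of dendrites (61.5 to 79.8). The median ratios of BAT introns with at least 1000 reads were 6.12 to somas over 939 introns and 9.93 to dendrites over 1430 introns. Tmem170b was chosen for its BAT reads, so its ratios are descriptions and were raised by the choice. Those BAT introns had medians of 57 reads in somas and 56 in dendrites, below the 548 and 235 of Tmem170b.

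Both soma contigs of Tmem170b lay wholly inside BAT contigs, while the 1554-nt dendrite contig overlapped neither. A BAT contig from 41712667 to 41713271 on chromosome 13 ended 1 base after a run of 15 adenines, and the soma contig at the same place ended within the run. The end of this BAT contig (chr13:41713196-41713271, plus strand) is shown with the run in capitals.
Tmem170b: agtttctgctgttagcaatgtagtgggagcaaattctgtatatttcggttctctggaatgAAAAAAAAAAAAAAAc

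Mettl9, the histidine methyltransferase, had 67352 reads in intron 3 in BAT cells (3771 RPM, interval 3743 to 3800.0) and 4 in cardiomyocytes (0.328 RPM, 0.0893 to 0.839). The ratio was 11504 (4493 to 42222.5), against a median of 5.53 over 1126 introns. Mettl9 was chosen for its BAT reads, so the ratio is a description. In cardiomyocytes, those introns had a median of 339.5 reads, against 4 for Mettl9. Mouse dendrites listed intron 2 with 2 reads, and rat somas listed intron 1 with 1064 reads (508 RPM, 478 to 539). No Mettl9 intron was listed in mouse somas or rat dendrites. The BAT reads fell in 2 contigs of an intron of 4918 nt, and the longer ended 108 nt before its 3′ end. The cardiomyocyte contig (chr7:128199992-128200168, plus strand) lay inside the longer BAT contig and ended within a run of 13 adenines, of which it held 11. It is shown whole, with these 11 in capitals.
Mettl9: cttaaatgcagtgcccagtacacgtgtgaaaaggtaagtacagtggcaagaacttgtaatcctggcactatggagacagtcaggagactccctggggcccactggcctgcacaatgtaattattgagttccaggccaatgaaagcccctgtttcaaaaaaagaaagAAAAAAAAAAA

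**Figure D3:**
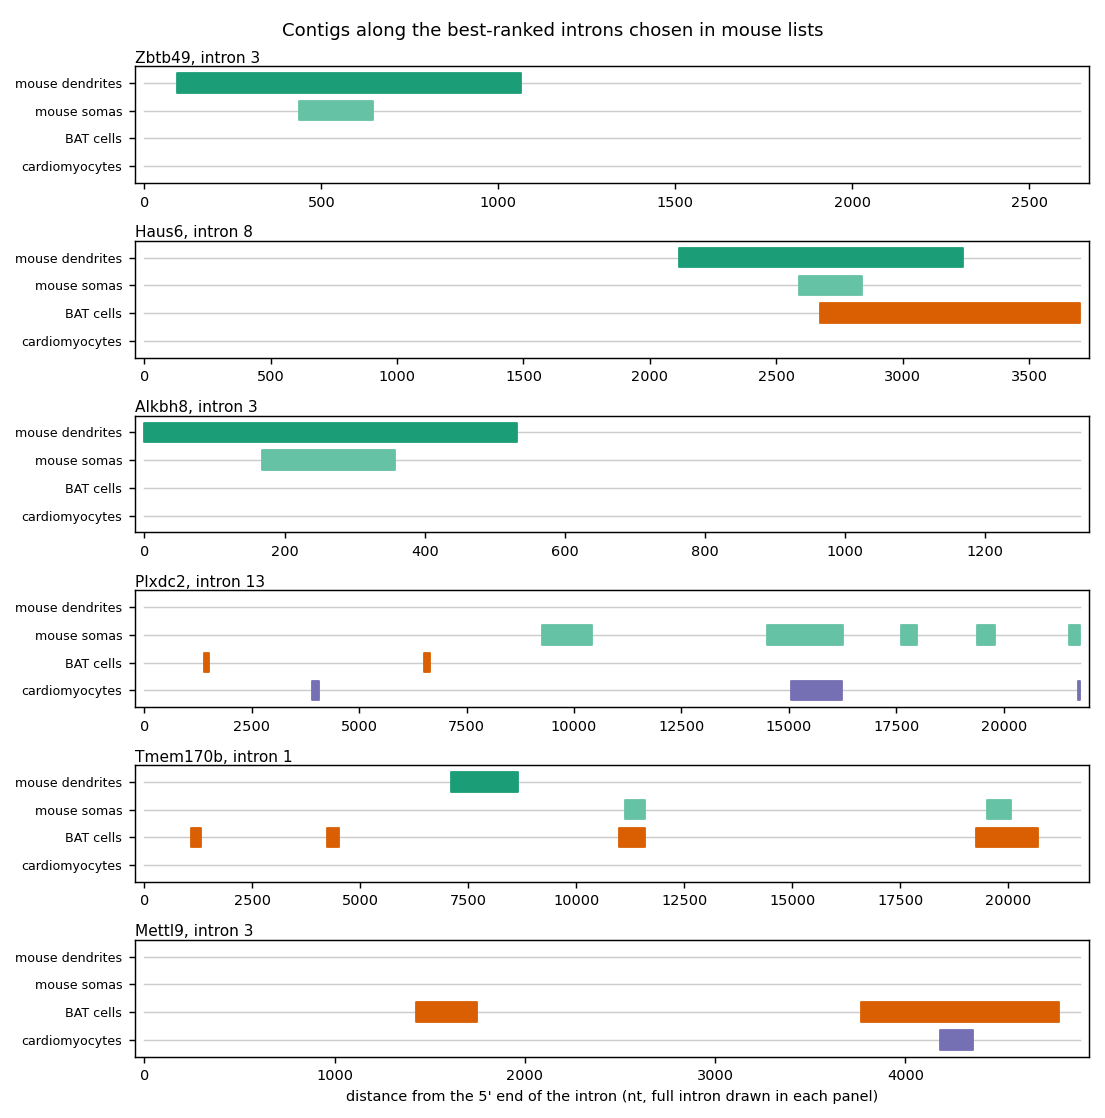
Position of each contig along the 6 best-ranked introns chosen in mouse lists, with 1 row per list and the full intron from its 5′ end (nt) in each panel. Soma contigs of Zbtb49, Haus6, Alkbh8 and Tmem170b lie within the span of the contig from the list with the most reads, and the contigs of Plxdc2 in mouse somas and cardiomyocytes end together at the 3′ end of intron 13.

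Over the best-ranked introns, 12 pairs of lists held the same intron, and in 8 of these the contigs overlapped. Among all introns held by 2 mouse lists with at least 1000 reads in one of them the contigs overlapped in 62.9%, and among all introns in both of 2 mouse lists in 53.4%. For the other introns of the 9 genes the contigs overlapped in 16 of 34 mouse pairs, and most of these pairs were of Plxdc2. In rat they overlapped in 1 of 6 pairs, all of Nell1, where the background was 66.5% of introns in both rat lists.

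Nell1, a secreted protein with EGF-like repeats, was listed in rat alone. In rat somas intron 12 had 18580 reads (8871 RPM, interval 8744 to 8999) in 4 contigs on chromosome 1 of rn4, and intron 15 had 12716 reads (6071 RPM, 5966 to 6177) in a single contig of 574 nt, from 100705387 to 100705960. Introns 13, 2 and 14 followed with 2468, 2114 and 846 reads, and introns 3 and 11 had 14 and 4. Intron 12 thus held 50.6% of the Nell1 reads of the list (50.1 to 51.1) and intron 15 held 34.6%, so that the reads of the gene were spread over several introns.

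Rat dendrites also listed 7 introns of Nell1, but not intron 12. Intron 15 had 1075 reads there (1067 RPM, 1004 to 1133) in 5 contigs, none of which overlapped the soma contig of intron 15. The other introns in rat dendrites had between 2 and 28 reads. Of the 6 Nell1 introns in both rat lists, the contigs overlapped in intron 11 alone, where the lists had 7 and 4 reads. Summed over the gene, Nell1 stood at 17542 RPM in rat somas and 1119.6 in rat dendrites.

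Ssbp1, the mitochondrial DNA-binding protein, was chosen for its read density. In rat dendrites intron 4 had 2063 reads (2048 RPM, interval 1960.3 to 2138) in a contig of 72 nt on chromosome 4 of rn4, and intron 3 had 24. It was not listed in rat somas. In mouse, an intron with the number 4 had 225 reads in BAT cells (12.6 RPM, 11.0 to 14.4) and 222 in cardiomyocytes (18.2 RPM, 15.9 to 20.8), and Ssbp1 was not listed in mouse neurons. The mouse contigs, of 123 and 128 nt, took the 3′ part of an intron of 240 nt and reached its last base. In cardiomyocytes intron 5 had 326 reads in a contig that began right after exon 5, so that the 88 nt between the contigs had the ends of an annotated exon, and this contig lay within an exon of a transcript annotated as a retained intron. The BAT contig of mouse intron 4 (chr6:40426624-40426746, plus strand) is shown because both lists ended at the same base, with a run of 23 thymines and the AG at the intron end in capitals.
Ssbp1: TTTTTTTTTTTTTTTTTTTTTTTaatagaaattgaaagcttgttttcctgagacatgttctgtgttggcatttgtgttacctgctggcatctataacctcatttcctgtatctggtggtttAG

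Hltf, the ATPase of stalled replication forks, was likewise chosen for its density. In rat somas intron 11 had 5162 reads (2464.5 RPM, interval 2398 to 2533) in a contig of 52 nt, and the next intron, intron 12, had 6858 reads (3274 RPM, 3197 to 3353) in 574 nt. These contigs on chromosome 2 of rn4 were 45 nt apart, and a contig of intron 10 with 2 reads ended 138 nt before the first. Introns 11 and 12 held 42.9% and 57.0% of the Hltf reads of the list. Rat dendrites listed no intron of Hltf.

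In mouse, Hltf had small counts in many introns. Mouse dendrites listed 7 introns with between 3 and 349 reads, led by intron 16 (113 RPM, 102 to 126). BAT cells listed 5 introns led by intron 10 with 194 reads, mouse somas 3 introns led by intron 18 with 130, and cardiomyocytes intron 2 with 248. The sums over the gene were 156 RPM in mouse dendrites, 94.9 in mouse somas, 20.3 in cardiomyocytes and 17.6 in BAT cells, against 5742 in rat somas. Introns with the numbers 11 and 12 were in none of the mouse lists.

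**Figure D4:**
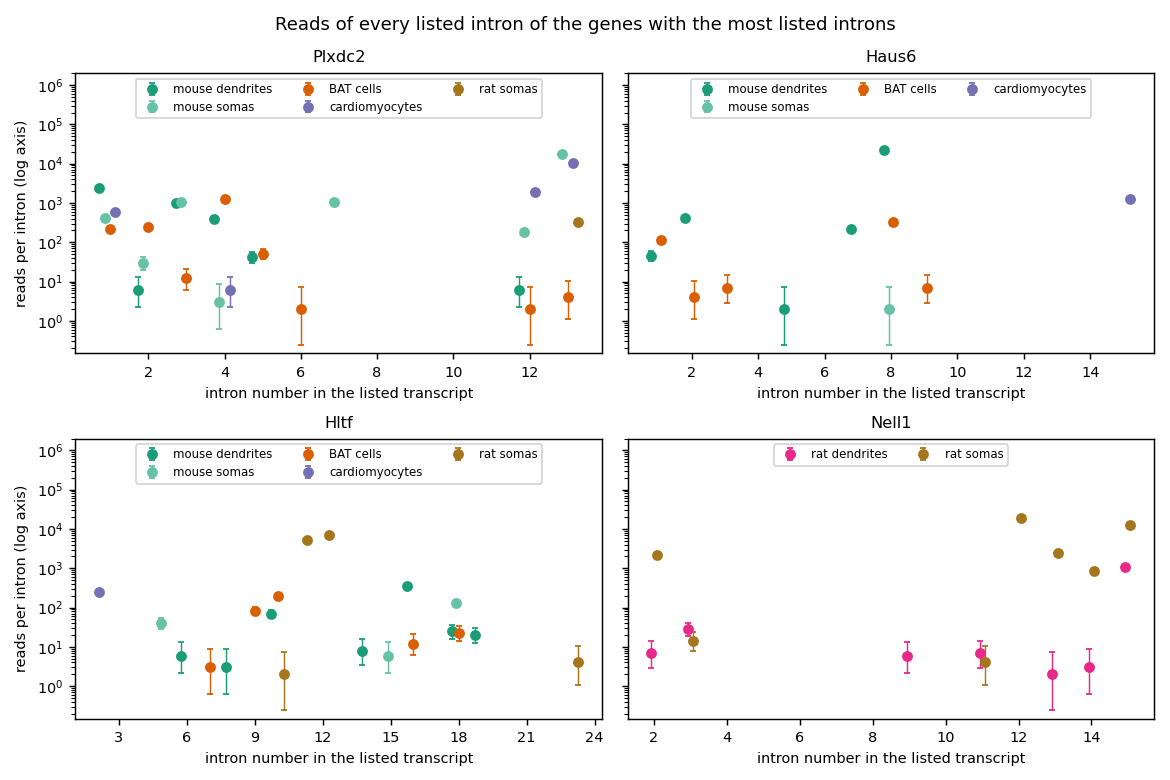
Reads (log axis) of every listed intron of Plxdc2, Haus6, Hltf and Nell1 by its number in the listed transcript, with 95% Poisson intervals and a colour per list. Numbers in rat belong to the rat transcript and were not matched to mouse. In Haus6 1 point stands far above the rest, while Nell1 (18580 and 12716 reads) and Hltf (6858 and 5162 reads) each have a pair of high introns in rat somas.

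Within the list of choice, the best-ranked intron held a median of 98.9% of the listed reads of its gene over the 9 genes, from 42.9% for Hltf to 100% for Zbtb49, Tmem170b and Mettl9. For genes with an intron of at least 1000 reads, the median share of the leading intron was between 90.6% in BAT cells and 99.6% in rat somas. The remaining 77 listed introns of the 9 genes had between 2 and 12716 reads with a median of 40, and 38 of them had fewer than 32 reads.

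Relatives and partners of the 9 genes had listed introns too, mostly with fewer reads. The 9 genes were chosen for their reads and the relatives were not, so this difference was set by the choice. As background, 57.2% of the 22611 protein-coding symbols of GENCODE had a listed intron in any list. Of the 7 other augmin subunits, 6 were listed in 18 introns, at most with 864 reads in Haus4 intron 2 in mouse dendrites. Of 9 other genes, the AlkB family and the Alkbh8 partner Trmt112, 6 were listed, led by Fto, an RNA demethylase, with 2542 reads in intron 3 in rat somas. Plxdc1 reached 625 reads in mouse dendrites. Nell2, the close relative of Nell1, had 16208 reads in intron 4 in BAT cells, rank 194 there. Tmem170 had a single intron with 79 reads in BAT cells.

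Among 27 other annotated Mettl genes 22 were listed, led by Mettl3, the catalytic subunit of the mRNA adenosine methyltransferase, with 10141 reads in intron 1 in BAT cells and 3813 in intron 9 in rat dendrites, rank 20 there. Among 39 other annotated Zbtb genes 16 were listed, with at most 2422 reads in Zbtb25 intron 2 in cardiomyocytes. All 8 genes of mitochondrial DNA replication and transcription were listed, none above the 119 reads of Tfb2m intron 5 in mouse dendrites. All 7 genes of fork remodelling were listed, led by Shprh, the other mammalian relative of yeast Rad5, with 13707 reads in intron 25 in BAT cells.

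The introns with the most alike levels were found by distance in log2(RPM + 1) over the 4 mouse or 2 rat lists, with an intron that a list does not hold set to 0 there, although it may have had reads. For Mettl9 they were Kdm6a intron 7 (distance 0.20, 69619 reads in BAT cells and 2 in cardiomyocytes) and Fabp4 intron 3 (0.42, 70980 reads in BAT cells). For Alkbh8 they were Papss2 intron 7 (1.12) and 4921513D23Rik intron 16 (1.22), and for Tmem170b Fam5b intron 4 (1.85) and Cngb3 intron 13 (2.13). Haus6 was nearest to Bai3 intron 12 (2.01) and Mll3 intron 9 (2.02), and Zbtb49 to 4930525F21Rik intron 15 (2.44) and Enox1 intron 10 (2.55). Plxdc2 had the most distant neighbours, Herpud1 intron 1 (3.00) and Porcn intron 7 (3.68). With 2 lists to compare, the rat introns had close neighbours by reads alone, Cenpi intron 18 and Fyn intron 5 for Nell1, Utp18 intron 11 and Reln intron 4 for Ssbp1, and Reep3 intron 5 and Ccdc150 intron 1 for Hltf.

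Sequence and annotation were read for the 130 mouse contigs of the 9 genes, 27 of them in best-ranked introns. Plxdc2 held 77 of the 130, so counts over all of them rest largely on this gene. A run of at least 10 adenines within 300 nt downstream was found for 7 of the 130 contigs, with 9.36% of all 97721 mouse contigs as background, and within the contig for 13, with a background of 10.5%. For the contig or the 300 nt after it the count was 21 (background 19.4%). Within 25 nt of the 3′ end of the contig, such a run was found for 12 of the 130 (background 11.0%), among them the 4 contigs of Tmem170b (mouse somas and BAT cells), Alkbh8 (mouse somas) and Mettl9 (cardiomyocytes) described above. For the 14 contigs of best-ranked introns in the list of choice, 3 held a run of at least 10 adenines, against 21.0% of the contigs of all mouse introns with at least 1000 reads. Downstream of these 14 contigs such a run was found for 1, against 6.51%. A run of at least 10 thymines, the same letters on the other strand, was in 20 of the 130 contigs (background 10.6%) and in 8 of the 27 of best-ranked introns. These 8 lay in 4 genes, and overlapping contigs of different lists counted the same run again. The 27 contigs were also longer, with a median of 429 nt against 269 nt for all mouse contigs. The share of thymine runs in introns with at least 1000 reads was not analysed here.

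An annotated exon overlapped 3 of the 130 contigs, the 2 of Zbtb49 and 1 of Ssbp1 in cardiomyocytes, with a background of 7.78%, and 3 by at least 0.5 of the contig, with a background of 5.40%. For contigs of introns with at least 1000 reads the backgrounds were 7.57% for an exon and 7.08% for the 3′ end of an intron. The 3′ end of an annotated intron was reached by 7 of the 130 (background 14.2%) and the 5′ end by 3 (background 12.1%). The GC content of the 130 contigs had a median of 37.6%, against 41.2% for all mouse contigs. An alignment elsewhere in the genome with at least 90% identity over at least 100 bases was found for 32 of the 130 contigs, 22 of them among the 77 contigs of Plxdc2. Among the 27 contigs of best-ranked introns there were 2, in Plxdc2 (mouse somas) and Mettl9 (BAT cells). Over at least 50 bases, 48 of the 130 contigs and 11 of the 27, in 6 genes, had such an alignment. None of the alignments was to the mitochondrial genome. The share of all mouse contigs with such an alignment was not analysed here.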

How the data were processed

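The authors aligned reads of 3x aRNA libraries to mm9 and rn4 (the builds in the submitters' processing notes), took the reads that mapped once and inside an intron, left out introns holding a gene prediction or a known polyadenylation site, and joined close reads into contigs. In somas, BAT cells and cardiomyocytes the paper kept only contigs of at most 400 nt as CIRTs, to limit nuclear RNA. The lists used here also hold longer contigs of these cells, such as 1783 nt for Plxdc2 in mouse somas. The deposited counts are raw reads per intron, pooled over the libraries of a group, with no normalization and no values per library. The count is repeated on each contig of an intron and was taken once. Start positions count from 0. The stop position belongs to the contig, since 12300 of 97783 mouse contigs ended at the last base of a GENCODE intron (vM1, NCBIM37) with 1 added to it and 11 without, so 1 was added to both positions. Labels name 6 BAT and 9 cardiomyocyte libraries, more cells than the study's text counts.

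The members and gene lists were chosen with earlier results of these data known. For each member the intron with the best rank over the 6 lists, by reads or by reads per 50 nt of contig (introns with 1 contig), was described, with the introns ranked next below and, named after their values were seen, next above, the 2 introns nearest in level, the genes with an exon at its contigs, and a list of relatives and partners, counted over genes in GENCODE where the list held other symbols. Older symbols of list genes were matched through RefSeq synonyms, such as Mtap2 for Map2. Lists were compared by symbol and intron number. Cell type markers were counted as listed or not. The summed level of the neuronal markers is not reported here. Contigs were joined to the GENCODE exons, and aligned to the NCBIM37 genome with BLAST 2.17.0 (megablast, at least 90% identity). Runs of at least 10 adenines on the gene's strand were searched in 300 nt, and 62 mouse contigs on sequences absent from the genome file were left out. Python 3.11.15, pandas 2.3.3, numpy 2.4.6, scipy 1.17.1, pysam 0.24.0 and matplotlib 3.10.9 were used. Interval and overlap functions were tested on simulated data. Rat annotation and rat sequence were not analysed here and rat introns were not matched to mouse introns, and aRNA sequencing without strand cannot tell a gene from its antisense partner.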

Additional observations from a re-analysis of the deposited data

Results flagged for a closer look

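For Alkbh8 the 2 species moved in opposite directions between dendrites and somas, by the summed RPM (reads per 1000000 reads of the list) of the gene in the pooled lists. The ratio of dendrites to somas was 4695 in mouse (counting interval 1299.5 to 38773) and 0.104 in rat (0.0491 to 0.195). The mouse value rests on 15621 reads in dendrites against 2 in somas, and the rat value on 10 reads against 200, in introns with other numbers. The mouse direction was set by the choice of Alkbh8 for its intron 3 in mouse dendrites and is a description, and the introns with at least 1000 reads in mouse dendrites had a median ratio to somas of 93.2. The difference was not tested, since each list is a single pooled sample.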

How the results depend on the processing

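Of 25 alternatives over 9 results, 18 stayed within 1.5 times the value reported, and none reversed a direction. With a minimum of 32 reads, 39 rather than 77 other introns of the 9 genes were listed. With the count summed over contigs, the reads of the 9 best-ranked introns came to 759302 rather than 281274, since introns with several contigs were then counted several times. The number of member contigs with a run of adenines was 7 in the 300 nt downstream with at least 10 adenines, 35 with at least 6, 21 with the contig itself included, and, in settings added after the data were seen, 13 in the contig alone and 12 within 25 nt of its 3′ end. Mouse contigs of best-ranked introns with an alignment elsewhere rose from 2 to 11 of 27 when 50 rather than 100 bases were asked for. The 6 best-ranked introns listed in another list became 2 (Plxdc2 and Mettl9) with contigs of at most 400 nt in every list, where Zbtb49, Haus6 and Alkbh8 have none in dendrites, and 4 with at least 32 reads. The number stayed at 6 with the limit of 400 nt in somas, BAT cells and cardiomyocytes alone. No paired analysis was possible because the lists pool their libraries, and leaving out each library was not possible for the same reason. Each list stands for a single pooled sample, so that a value in 1 list may rest on 1 library, and introns with 2 to 4 reads have intervals too wide to rank.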
